A study of Mus musculus with 5 samples.

Results

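The genes described here encode Wnt ligands, their receptors and their secreted antagonists, measured by RNA sequencing in glands of mice that had just given birth. They were chosen by name alone, as the rows of the deposited expression table whose symbol begins with Wnt, Fzd, Sfrp, Dkk or Rspo followed by a number and at most a letter a or b, together with Lrp5, Lrp6, Axin2, Lgr4, Lgr5 and Lgr6. This gave 47 of the 22609 genes in the table. The study compared 2 wild-type libraries with 3 libraries labelled Nfib-null (KO), all from outbred mice, and took whole mammary tissue without lymph nodes less than 12 hours after delivery. NFIB is a transcription factor of the nuclear factor I (NFI) family, and the series asks how far gene expression induced by pregnancy depends on it together with STAT5. Both groups share strain, tissue and stage. The labels give no age, no allele and no Cre driver, and do not say in which cells of the gland the gene was lost.

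Wnt proteins are secreted, lipid-modified signals. In the canonical branch a Wnt protein brings a frizzled receptor together with Lrp5 or Lrp6, which protects beta-catenin from destruction and lets it act with TCF factors in the nucleus, while other branches work through cell polarity and calcium. R-spondins bind Lgr receptors and keep frizzled receptors at the cell surface, and the Sfrp and Dkk proteins are soluble modulators, most of them inhibitors. In the mammary gland the pathway is known for its part in budding, in side branching under progesterone and in the upkeep of basal and stem cells.

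The table holds 1 value per gene and group, in RPKM (reads relative to gene length and library depth), which is a level per length and can be set side by side between genes. There was therefore no replicate spread and no test, and only differences of 2-fold or more are counted as calls. One column carries the wild-type libraries' shared title. The other is headed NfibFF-WC, a name without explanation in the labels, and was taken as the Nfib-null group because no other group remains. From the smallest steps between low values, depth was estimated at about 16000000 reads per wild-type library and about 27300000 per Nfib-null library. By these estimates a gene of 1 kb at 1 RPKM rested on about 32 reads in the first group and 81.8 in the second. Each estimate is a median inside a window set with the values in view, so the window bounds it. All read numbers and intervals below rest on these estimates, and a normalization of the wild-type values would make them wrong. A log2 difference is that of log2(RPKM + 1) after the columns were scaled to a median ratio of 1, with positive values for higher levels in Nfib-null glands. Nfib itself was not lower in Nfib-null glands, at 55.3 against 33.7 RPKM (log2 0.30, or −0.32 scaled to luminal epithelial markers), and a whole-gene value does not check the labels where a transcript or some cells remain. In calls, 2-fold stands for a log2 difference of 1 on this scale, which includes the added 1. Log2 differences on this scale understate the change of genes with low values.

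The upstream sequences of 4 members are shown, of which Sfrp5 and Lgr4 mark the ends of the range of log2 differences described below. Sfrp5 had the largest log2 difference, Sfrp2 was the most abundant antagonist, Fzd7 was among the higher receptors, and Lgr4 was an abundant receptor gene with the smaller value in Nfib-null glands. Each run holds the 250 bases before the annotated start of transcription, 5′ to 3′ on the strand of the gene, from RefSeq on build GRCm38.p6, which is not the build named by the submitters. Capitals mark TTGGC or its reverse complement GCCAA, the half-site recognised by NFI factors.
Sfrp5 (chr19:42202253-42202502, minus strand): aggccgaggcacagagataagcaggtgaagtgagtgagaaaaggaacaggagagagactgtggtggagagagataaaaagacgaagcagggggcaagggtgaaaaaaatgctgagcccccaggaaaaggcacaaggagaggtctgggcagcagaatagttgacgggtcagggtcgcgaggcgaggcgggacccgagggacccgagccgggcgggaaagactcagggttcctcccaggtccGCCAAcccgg
Sfrp2 (chr3:83766071-83766320, plus strand): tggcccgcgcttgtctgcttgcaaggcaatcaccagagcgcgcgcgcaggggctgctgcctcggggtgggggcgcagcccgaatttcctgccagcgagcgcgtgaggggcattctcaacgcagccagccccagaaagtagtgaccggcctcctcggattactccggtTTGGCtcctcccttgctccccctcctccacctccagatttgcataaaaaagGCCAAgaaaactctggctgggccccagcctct
Fzd7 (chr1:59481897-59482146, plus strand): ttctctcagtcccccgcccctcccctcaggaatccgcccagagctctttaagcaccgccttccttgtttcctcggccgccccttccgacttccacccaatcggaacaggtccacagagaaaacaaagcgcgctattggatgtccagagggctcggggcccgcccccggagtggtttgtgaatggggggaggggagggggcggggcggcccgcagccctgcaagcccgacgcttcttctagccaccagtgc
Lgr4 (chr2:109917397-109917646, plus strand): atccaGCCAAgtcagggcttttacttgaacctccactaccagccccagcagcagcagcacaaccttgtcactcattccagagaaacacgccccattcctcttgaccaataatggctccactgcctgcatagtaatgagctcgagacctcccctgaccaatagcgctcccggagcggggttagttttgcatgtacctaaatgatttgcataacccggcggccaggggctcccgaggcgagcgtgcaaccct

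The half-site lay 10 bases before the start in Sfrp5, 83 and 32 bases before it in Sfrp2 and 245 bases before it in Lgr4, and these letters were not in the window of Fzd7. RefSeq entries were found for 30 of the 47 members, with 33 windows in all. Of these windows 39.4% held TTGGC on either strand, against 41.5% of the 32851 windows of all genes. The full palindrome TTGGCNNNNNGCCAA was in 0 of the 33 windows and in 0.0365% of all. The TCF motifs CTTTGAA and CTTTGAT were in 1 and 2 of the 33 member windows (3.03% and 6.06%), against 4.46% and 3.21% of all. TTCNNNGAA, the core that STAT5 binds, was in 1 member window (3.03%), against 7.02% of all. Counts this small do not show a difference from all windows. All motifs were searched on both strands, and a match describes the letters of the window and no more. Member windows had a median GC content of 68%, against 52.4% for all windows.

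After median-ratio scaling, most members with a mean of at least 1 RPKM had higher values in Nfib-null than in wild-type glands, with Sfrp5 and Sfrp4 at the upper end. The direction of the smaller differences depended on the scaling between the columns. Of the 47 members, 23 reached 1 RPKM on average over the 5 libraries. Of those 23, 6 were at least 2-fold higher in Nfib-null glands, where 6.95% of all 12511 genes past this minimum were, and 0 were at least 2-fold lower, where 5.97% of all genes were. The 6 were Sfrp5, Sfrp4, Wnt5b, Sfrp2, Fzd1 and Fzd7. The median log2 difference of the 23 was 0.55, while the scaling sets that of all genes to about 0, and 21 of the 23 lay above 0, against 50% of all genes. That tally followed the scaling, with 22 above 0 with values as deposited, 18 after quantile normalization, 13 scaled to luminal epithelial markers and 5 scaled to fibroblast markers. Wnt2, Wnt6 and Axin2 passed the minimum only through Nfib-null glands, so these counts describe the genes kept and are no sample of all members. With no minimum, the number at least 2-fold higher was again 6 of 47, and the percentage over all genes was 3.87. The added 1 lets few genes below the minimum reach the limit, with 876 called among all genes against 869 with the minimum. The equal count of members therefore does not show that the result is free of the minimum. Just inside the minimum were Wnt2 and Wnt6, with means of 1.24 and 1.25 RPKM, and just outside it were Fzd3 and Wnt9a, with 0.975 and 0.874 RPKM.

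**Figure D1:**
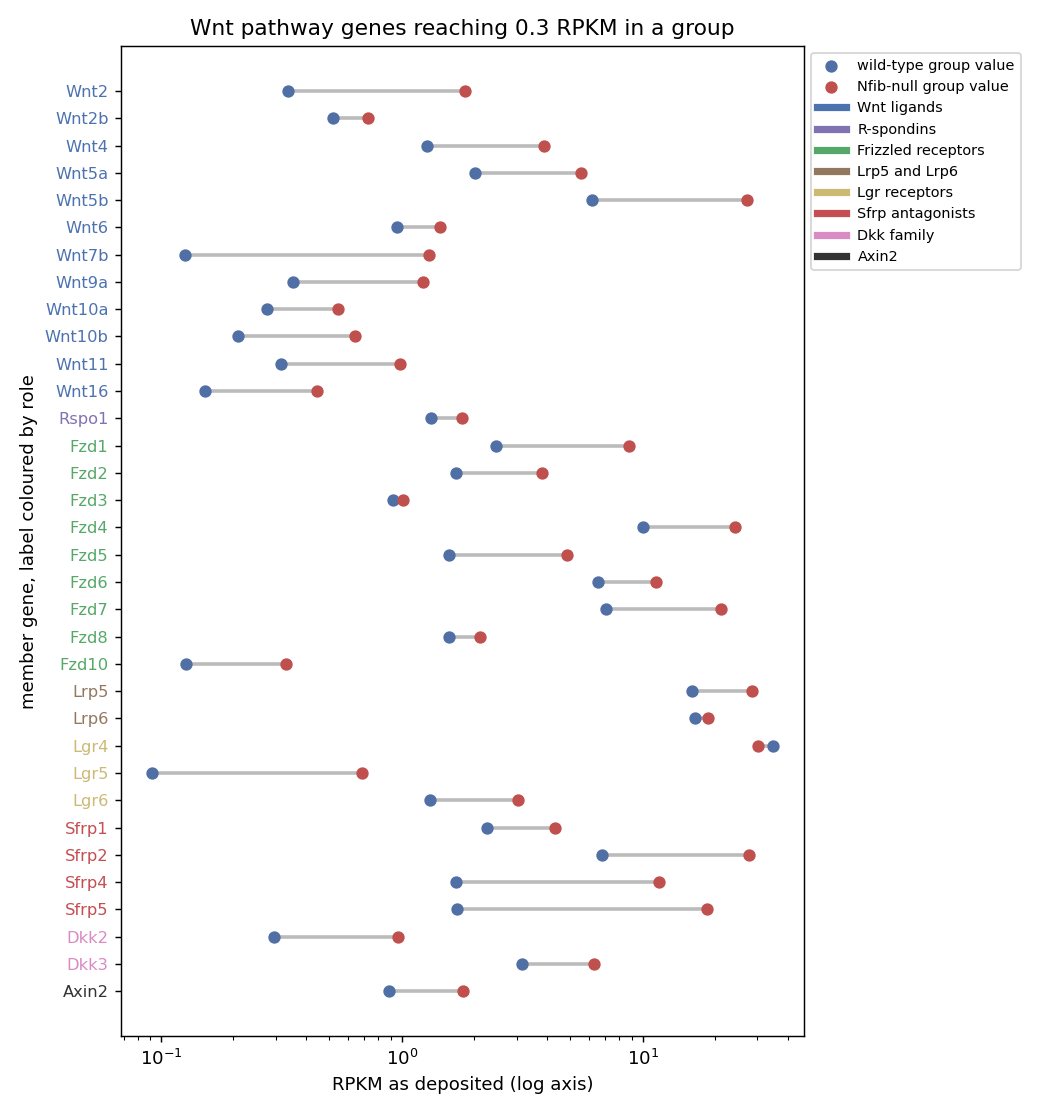
RPKM as deposited (log axis) of the members that reached 0.3 RPKM in a group, with the wild-type value as a blue point and the Nfib-null value as a red point, joined by a grey line, and gene labels coloured by role. The red point lies to the right of the blue one for every gene shown except Lgr4, at 30.1 RPKM in Nfib-null glands and 34.8 RPKM in wild-type glands.

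The ligand genes were led by a single member. Wnt5b, a ligand known for non-canonical signalling and for promoting fat cell formation, stood at 27.3 RPKM in Nfib-null glands and at 6.17 RPKM in wild-type glands, a log2 difference of 1.60. It alone made up 59.2% of the summed RPKM of the 19 Wnt genes in Nfib-null glands and 48.4% in wild-type glands. Its relative Wnt5a, which works largely outside the beta-catenin branch, stood at 5.57 against 2.01 RPKM (log2 0.81). Wnt4, the ligand that progesterone induces in the gland, stood at 3.89 against 1.27 RPKM (0.83). Both lay under the 2-fold limit on this scale and past it with values as deposited (1.13 and 1.11) or with a pseudocount of 0.1 (1.03 and 1.15). Their scaled ratios without a pseudocount were 2.09 and 2.30. Wnt2, a canonical ligand, stood at 1.84 against 0.336 RPKM (0.90), and Wnt6 at 1.45 against 0.955 RPKM (0.10). Wnt2 also passed the limit with values as deposited (1.09) or with a pseudocount of 0.1 (1.80). Its scaled ratio without a pseudocount was 4.11, from about 338 and 24 reads, beside 3.32 for Wnt5b. Calls on this scale thus follow the level of a gene as well as its ratio. All 5 ligands past the minimum had a difference above 0, where 50% of all genes did, with a median of 0.83. Of the 5, 1 was called higher, where 6.95% of all genes were. Wnt2 and Wnt6 are among the 5 and passed the minimum only through their Nfib-null value. The minimum thus favoured a difference above 0 for them. The summed RPKM of all Wnt genes was 46.0 in Nfib-null glands and 12.7 in wild-type glands, a ratio of 3.61 as deposited and 2.72 after scaling.

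Ligand genes below the minimum and above 0 in a column also had the higher RPKM as deposited in Nfib-null glands, from few reads. Of all genes above 0 in a column 73.4% did. Wnt7b, a ligand of epithelial cells, stood at 1.30 RPKM in Nfib-null glands and at 0.125 RPKM in wild-type glands, about 363 and 14 reads. The ratio as deposited was 10.4, with a 95% interval of 5.98 to 18.8 that covers counting error only and rests on the estimated depth. After scaling the ratio was 7.82 (interval 4.49 to 14.1). For Wnt9a the values were 1.22 and 0.354 RPKM, and for Wnt11 they were 0.987 and 0.314 RPKM. Wnt10b, which is known to hold back fat cell formation, stood at 0.639 against 0.210 RPKM. Its ratio was 3.05 as deposited (interval 1.89 to 5.36) and 2.29 after scaling (1.42 to 4.03). Wnt10a (0.542 against 0.277 RPKM), Wnt16 (0.445 against 0.153) and Wnt2b (0.725 against 0.519) completed the ligands that reached 0.3 RPKM in a column. Their scaled ratios were 1.47 (interval 0.917 to 2.42), 2.19 (1.29 to 3.96) and 1.05 (0.779 to 1.45), so the intervals of Wnt10a and Wnt2b include 1. For the ligand genes below the minimum the added 1 exceeds most of the values, so a log2 difference on the scale used above does not show their size. Wnt1 and Wnt8a were listed at 0 in wild-type glands and at 0.0150 and 0.0333 RPKM in Nfib-null glands, and Wnt3, Wnt3a and Wnt7a were listed at 0 in both. Wnt8b and Wnt9b were at most 0.0682 RPKM in either column.

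R-spondin genes were low, and the 1 past the minimum barely differed between the columns after scaling. Rspo1, which acts with Wnt4 on mammary stem cells and branching, stood at 1.79 RPKM in Nfib-null glands and at 1.32 RPKM in wild-type glands, a log2 difference of 0.02. It made up 93.6% and 98.3% of the summed R-spondin RPKM. Rspo3 stood at 0.0638 against 0.0234 RPKM, and Rspo2 and Rspo4 were listed at 0 in wild-type glands and at 0.0348 and 0.0233 RPKM in Nfib-null glands. Rspo1, the 1 R-spondin gene past the minimum, was not called in either direction, where 6.95% of all genes were higher and 5.97% lower.

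Of the 10 frizzled genes, which encode the seven-pass receptors of Wnt proteins, 7 passed the minimum, 2 were at least 2-fold higher in Nfib-null glands and 0 lower, with a median of 0.80. Fzd7, known from basal and stem cells of the gland, stood at 21.1 against 7.05 RPKM (log2 1.08), and Fzd1 at 8.76 against 2.46 RPKM (1.16). Fzd4, which also serves as the receptor of norrin in vessels, had the highest frizzled level in both columns, at 24.2 RPKM in Nfib-null glands and 10.1 RPKM in wild-type glands (0.80). Fzd5 stood at 4.88 against 1.57 RPKM (0.90) and Fzd2 at 3.81 against 1.68 RPKM (0.55). Without a pseudocount the scaled ratio of Fzd5 was 2.34, beside 2.25 for Fzd7, which was called. Fzd6, a receptor of the polarity branch, stood at 11.3 against 6.53 RPKM (0.35) and Fzd8 at 2.12 against 1.56 RPKM (0.02). All 7 had a difference above 0, with that of Fzd8 at the level of the median of all genes. Below the minimum, Fzd3 stood at 1.01 against 0.922 RPKM, Fzd10 at 0.331 against 0.127 RPKM and Fzd9 at 0.221 against 0.214 RPKM. The share of Fzd4 in the summed frizzled RPKM was 31.1% in Nfib-null glands and 31.2% in wild-type glands, while that of Fzd7 was 27.2% against 21.9% and that of Fzd6 was 14.6% against 20.3%.

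**Figure D2:**
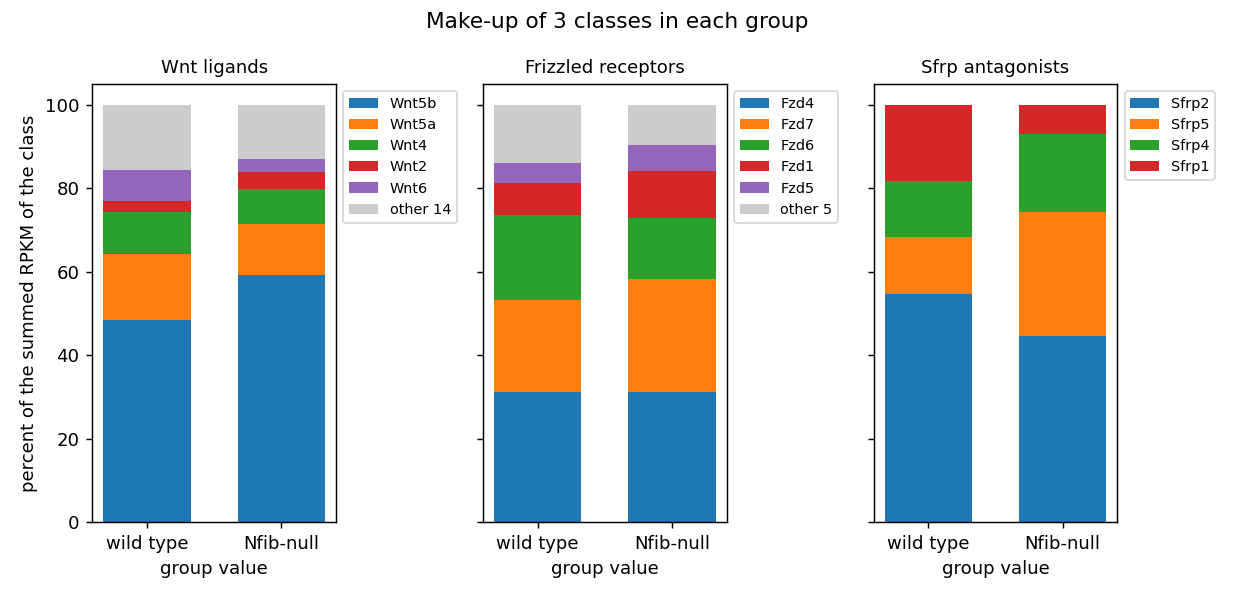
Stacked bars of each gene's percent of the summed RPKM of its class, in the wild-type and the Nfib-null group value, for Wnt ligands, frizzled receptors and Sfrp antagonists, with grey for the remaining genes of the class. Wnt5b takes 48.4% and 59.2% of the ligand sum, Fzd4 keeps 31.2% and 31.1% of the receptor sum, and Sfrp5 takes 13.6% and 29.7% of the Sfrp sum.

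None of the co-receptor and Lgr genes past the minimum, which were Lrp5, Lrp6, Lgr4 and Lgr6, was called in either direction. Of all genes 6.95% were higher and 5.97% lower, so calls among so few genes would be rare in any case. Lrp5 and Lrp6, the co-receptors of the canonical branch, were nearly equal in wild-type glands, at 16.0 and 16.6 RPKM. In Nfib-null glands Lrp5 stood at 28.5 RPKM (log2 0.41) and Lrp6 at 18.7 RPKM (−0.22), so that the ratio of Lrp5 to Lrp6 was 1.53 there and 0.965 in wild-type glands. A ratio of this kind lies within a column and does not depend on a scaling that multiplies a whole column by a single factor. A normalization of the wild-type values of another form could change it. Lgr4, the broadly expressed R-spondin receptor, was the member of highest level in both columns, at 30.1 RPKM in Nfib-null glands and 34.8 RPKM in wild-type glands. Its log2 difference of −0.60 was the lowest of the 23. Lgr6 stood at 3.05 against 1.31 RPKM (0.54). Lgr5, a marker of stem cells in several epithelia, was below the minimum at 0.684 against 0.0921 RPKM, about 264 and 14 reads. Its ratio was 7.43 as deposited (interval 4.33 to 13.7) and 5.58 after scaling (3.25 to 10.3). The Lgr5 value was 0.0227 of the Lgr4 value in Nfib-null glands and 0.00265 of it in wild-type glands. Lgr4 thus made up 89.0% and 96.1% of the summed Lgr RPKM.

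Secreted frizzled-related proteins bind Wnt ligands through a frizzled-like domain, and Sfrp5 and Sfrp4 held the 2 largest log2 differences among the 23 members past the minimum. Sfrp5, known as an adipokine that hinders Wnt5a signalling, stood at 18.5 RPKM in Nfib-null glands and at 1.69 RPKM in wild-type glands, a log2 difference of 2.53. Only 25 of the 12511 genes past the minimum had a larger difference in this direction. Sfrp4 stood at 11.7 against 1.67 RPKM (1.93) and Sfrp2 at 27.8 against 6.80 RPKM (1.51). Sfrp1, at 4.35 against 2.26 RPKM (0.40), was within 2-fold. The 4 genes thus split, with 3 called higher, 0 lower and a median of 1.72. In the wild type Sfrp5 held 0.748 of the level of Sfrp1, and in Nfib-null glands it held 4.25 times that level. The share of Sfrp1 in the summed Sfrp RPKM was 18.2% in wild-type glands and 6.98% in Nfib-null glands. The summed Sfrp RPKM was 62.3 against 12.4, a ratio of 5.02 as deposited, larger than that of the Wnt genes (3.61) and of the frizzled genes (2.42). Sfrp mRNA amounted to 1.35 times the summed Wnt mRNA in Nfib-null glands and to 0.975 times in wild-type glands, and to 0.802 and 0.386 times the summed frizzled mRNA.

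The Dkk genes were low apart from Dkk3, a divergent member that is not a classical Lrp6 inhibitor. Dkk3 stood at 6.27 against 3.14 RPKM (log2 0.48). Dkk2 stood at 0.963 against 0.295 RPKM, below the minimum, and Dkk4 was listed at 0 in both columns. Dkk1, the classical inhibitor that binds Lrp6, stood at 0.0860 RPKM in Nfib-null glands and at 0.153 RPKM in wild-type glands, about 17 and 12 reads. Its ratio as deposited was 0.560, with a counting interval of 0.250 to 1.27 that includes 1, and after scaling it was 0.421, with an interval of 0.188 to 0.958 that does not. These intervals rest on few reads and on the estimated depth. Lgr4 and Dkk1 were the only members whose RPKM as deposited was lower in Nfib-null glands, out of 43 above 0 in either column, and 41 were higher. Of all genes above 0 in a column 73.4% had the higher RPKM in Nfib-null glands.

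Axin2, a feedback inhibitor that beta-catenin and TCF induce and that is widely read as a gauge of canonical signalling, stood at 1.80 against 0.883 RPKM (log2 0.35), within 2-fold. Its ratio as deposited was 2.04 (counting interval 1.67 to 2.49) and 1.54 after scaling. With scaling to luminal epithelial genes its log2 difference was −0.004.

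**Figure D3:**
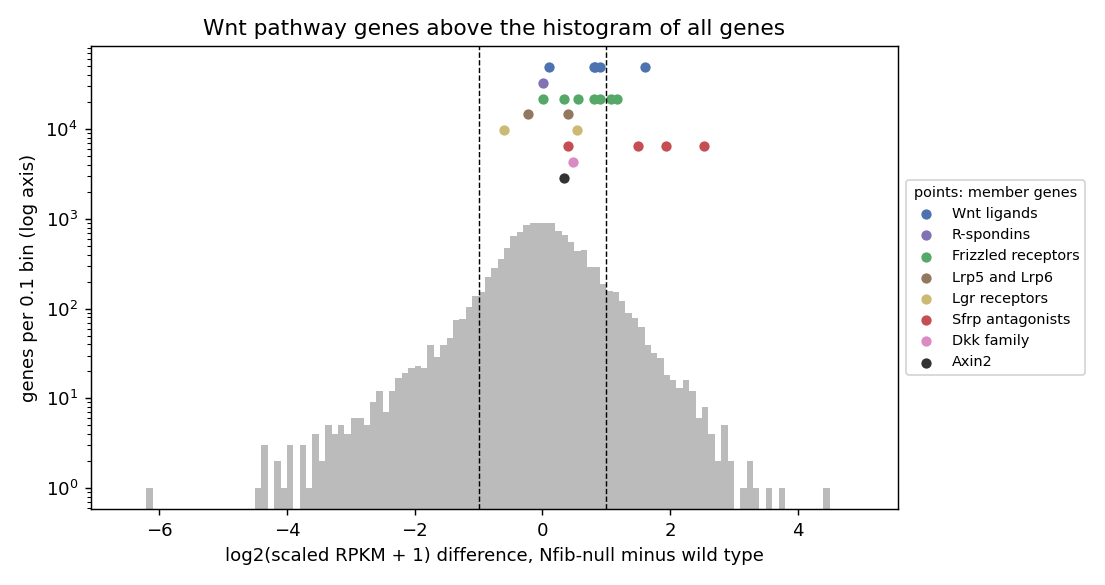
Histogram of the log2 difference between Nfib-null and wild-type values for all 12511 genes past the minimum (count on a log axis, bins of 0.1), with the 23 members as points above it in rows by role (their height has no meaning) and dashed lines at 2-fold. Points of Sfrp5, Sfrp4, Sfrp2, Wnt5b, Fzd1 and Fzd7 lie beyond the right line and 0 points lie beyond the left one.

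Markers of other cells differed between the columns beside these genes. Of 12 fibroblast markers 10 were at least 2-fold higher in Nfib-null glands and 0 lower, and their summed RPKM was 1874 against 509, a ratio of 3.68 as deposited. Of 12 adipocyte markers 11 were higher and 0 lower, with sums of 13615 and 2692 RPKM and a ratio of 5.06. Ratios as deposited of single markers ran from 1.83 to 6.61 in the fibroblast list and from 2.26 to 7.25 in the adipocyte list. They ran from 0.507 to 6.67 in the luminal list and from 2.45 to 4.39 in the macrophage list. Beside these, Sfrp5 had a ratio of 10.9, above each of these ranges, and Sfrp4 one of 7.00, within the adipocyte range only. Wnt5b (4.42) and Sfrp2 (4.09) lay within the adipocyte, fibroblast and luminal ranges alike, and Sfrp2 also within the macrophage range. Of 10 macrophage markers 8 were higher and 0 lower, with sums of 460 and 136 RPKM. Of 12 luminal markers 3 were higher and 1 lower, with sums of 1920 and 927 RPKM, and of 12 basal and myoepithelial markers 0 were higher and 0 lower, with sums of 1437 and 963 RPKM. Of 10 endothelial markers 0 were called in either direction, with sums of 241 and 176 RPKM, and 6 of the 9 lymphocyte markers past the minimum were lower and 0 higher, with sums over all 10 of 14.1 and 30.2 RPKM. None of these markers was listed at 0. In whole tissue a change in the number of cells of a type and a change in RNA per cell cannot be told apart, and the part of these cells in the differences of the Wnt pathway genes was not tested.

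The scaling and the pseudocount moved the number of members called. With a pseudocount of 0.1 in place of 1, 10 of the 23 were at least 2-fold higher, where 10.5% of all genes were, and with a pseudocount of 5 the number was 4, where 2.77% of all genes were. At a limit of 1.5-fold 11 were higher and 1 (Lgr4) lower, where 17.1% and 14.7% of all genes were, and at 4-fold 1 (Sfrp5) was higher, where 0.727% were. With values as deposited, 11 of the 23 were at least 2-fold higher, where 14.4% of all genes were, and the median of all genes was 0.35. None of the 23 was lower there, where 2.95% of all genes were. Scaled to the luminal epithelial markers, 3 were higher (Sfrp5 at 2.02, Sfrp4 at 1.43 and Wnt5b at 1.02) and Lgr4 was lower (−1.21), where 2.11% of all genes were higher and 20.7% lower. Scaled to the fibroblast markers, Sfrp5 alone was higher (1.25), where 0.328% of all genes were, and Lgr4 (−2.11), Lrp6 (−1.69), Lrp5 (−1.08) and Fzd6 (−1.05) were lower, where 68.9% of all genes were. Under that scaling 16 of the 23 took the opposite sign, among them Fzd1 and Fzd7, which stayed within 2-fold (−0.11 and −0.36), and Wnt5b and Sfrp2 came close to 0 (0.16 and 0.06). Sfrp5 was the 1 member at least 2-fold higher in every scaling and with every pseudocount run, and Sfrp4 and Wnt5b reached 2-fold in all of them but the scaling to fibroblast markers (0.68 and 0.16). Lgr4 lay below 0 in all of them.

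**Figure D4:**
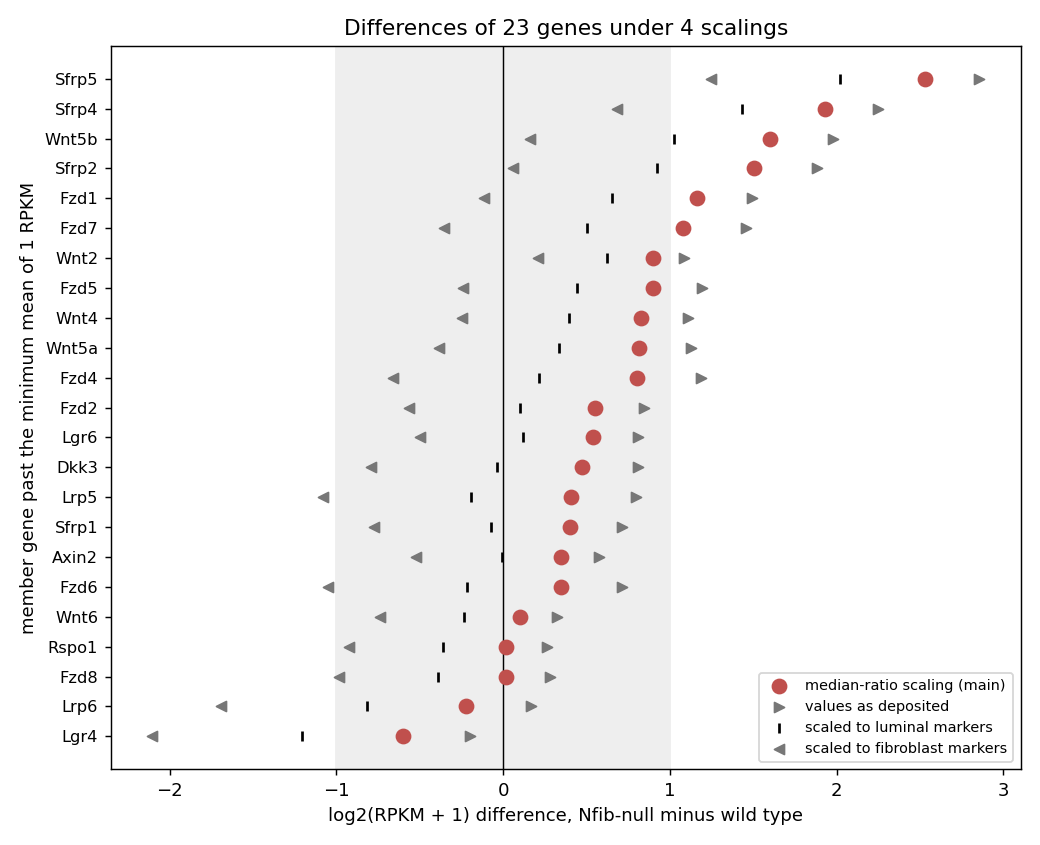
Difference of log2(RPKM + 1), Nfib-null minus wild type, for the 23 members past the minimum, sorted by the value after median-ratio scaling (red points), with values as deposited (right-pointing triangles), scaled to luminal markers (bars) and scaled to fibroblast markers (left-pointing triangles). The grey band spans less than 2-fold, and Sfrp5 lies to its right under all 4, from 1.25 to 2.86.

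The direction of the genes that act around and below these receptors depended on the scaling. Of the pathway genes outside the members, 84 of 101 in the table passed the minimum. After median-ratio scaling 10 of the 84 were at least 2-fold higher and 4 lower, and their median was 0.15. Of the 84, 55 lay above 0, where 50% of all genes did. Pygo1, Cthrc1, Dact1, Invs, Nkd1, Nkd2, Ephb2, Calca and Foxa1 passed the minimum only through their Nfib-null value. The unscaled RPKM put 23 of the 84 at least 2-fold up and 0 down, luminal marker scaling 4 up and 10 down, and fibroblast marker scaling 0 up and 44 down. Of all genes past the minimum, 6.95% were up and 5.97% down after median-ratio scaling, and 14.4% and 2.95% with unscaled RPKM. The shares were 2.11% and 20.7% under luminal marker scaling, and 0.328% and 68.9% under fibroblast marker scaling. These shares of all genes also stand beside the counts of each list below. Inside the cell, 30 genes of the transduction core had a median of −0.03, with 0 higher and 2 lower. Ctnnb1, which encodes beta-catenin and is outside the naming rule, stood at 166 against 127 RPKM (log2 −0.02). The lower ones were Dvl3, a cytoplasmic adaptor of frizzled receptors, at 19.9 against 31.3 RPKM (−1.02), and Tcf7, a TCF factor also expressed in T cells, at 2.14 against 4.45 RPKM (−1.10). Nearest to 2-fold on the other side were the kinase gene Csnk1e (0.88), the co-activator gene Pygo1 (0.80) and the co-repressor gene Tle3 (0.79). With values as deposited neither Dvl3 nor Tcf7 reached the limit (log2 of RPKM + 1 of −0.63 and −0.79).

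Genes of ligand release and of other secreted modulators split. Wls, the carrier that brings Wnt proteins to the cell surface, stood at 31.4 against 50.3 RPKM (log2 −1.07), whereas Porcn, the acyltransferase that adds their lipid, stood at 5.59 against 1.94 RPKM (0.85). Apcdd1, a membrane inhibitor of Wnt signalling, stood at 21.4 against 4.61 RPKM (1.63). The glypican gene Gpc3 stood at 21.4 against 4.73 RPKM (1.60) and Gpc6 at 4.96 against 1.40 RPKM (1.02). Glypicans are cell-surface proteoglycans that bind Wnt proteins. Next below the limit were Cthrc1 (0.80) and the heparan sulfatase gene Sulf1 (0.76). In all 3 of 12 genes of this list past the minimum were higher and 1 lower, with a median of 0.73. With values as deposited Wls was within 2-fold (−0.66).

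Among genes commonly used as targets of beta-catenin and TCF, 4 of 16 past the minimum were higher and 1 lower, with a median of 0.56. Nkd2, an inhibitor that binds dishevelled, stood at 3.86 against 0.310 RPKM (log2 1.68), the receptor gene Met at 19.0 against 5.86 RPKM (1.17) and Procr, a marker of a mammary stem cell population, at 11.0 against 3.70 RPKM (1.00). Apcdd1 and Tcf7 were the other called genes, 1 in each direction. Ephb3 (0.78) and Cd44 (0.76) were next. Rnf43, which removes frizzled receptors from the surface, stood at 8.92 against 12.9 RPKM (−0.86), and Znrf3, its relative, at 1.87 against 1.08 RPKM (0.22). Lef1, Sp5, Notum and Mmp7 were below the minimum. Lef1, also in the transduction core list, was lower in Nfib-null glands, at 0.121 against 0.722 RPKM (−0.73), and the others were at most 0.0809 RPKM. Of the 16 targets past the minimum 12 lay above 0, where 50% of all genes did. Nkd1, Nkd2 and Ephb2 are among the 12 and passed the minimum only through their Nfib-null value. The minimum thus favoured a difference above 0 for them. The unscaled RPKM put 7 of the 16 at least 2-fold up and 0 down, luminal marker scaling 2 and 2, and fibroblast marker scaling 0 up and 5 down. Of all genes, 20.7% were down under luminal marker scaling and 68.9% under fibroblast marker scaling, and 14.4% were up with unscaled RPKM.

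In the polarity and calcium branches 2 of 21 genes past the minimum were higher and 0 lower, with a median of 0.16, beside 6.95% and 5.97% of all genes. Scaled to luminal markers 0 were higher and 1 lower (median −0.33), and scaled to fibroblast markers 0 were higher and 10 lower (median −0.98). Of all genes 2.11% were higher and 20.7% lower under luminal scaling, and 0.328% and 68.9% under fibroblast scaling. Vangl1, a core polarity protein, stood at 10.8 against 3.54 RPKM (log2 1.03), and Dact2, which binds dishevelled, at 16.5 against 4.74 RPKM (1.25). Dact1 (0.87), Invs (0.73) and Daam2 (−0.70) were nearest below the limit. Among genes that link hormones to Wnt4 in the gland, 2 of 6 past the minimum were higher and 1 lower, with a median of 0.33. The higher genes, Calca and Foxa1, passed the minimum only through their Nfib-null value. Scaled to luminal markers 1 of the 6 was higher and 2 lower, and Foxa1 fell to 0.75. Scaled to fibroblast markers 0 were higher and 3 lower. Calca, the calcitonin gene, which progesterone induces, stood at 3.16 against 0.305 RPKM (1.47), Foxa1, a partner of the estrogen receptor, at 3.79 against 0.816 RPKM (1.14), and the prolactin receptor gene Prlr at 9.13 against 18.0 RPKM (−1.29, or −0.91 with values as deposited). Id4 (0.91), the RANK receptor gene Tnfrsf11a (−0.68) and Esr1 (−0.26) came next. Pgr, the progesterone receptor gene, was below the minimum at 0.899 against 0.482 RPKM. Tnfsf11, its paracrine effector RANK ligand, was at 0.113 against 0.167 RPKM.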

How the data were processed

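RNA of whole mammary tissue was sequenced in 2 wild-type and 3 Nfib-null libraries, as poly(A) RNA with a TruSeq kit on a HiSeq instrument per the labels' protocols. Per the submitters' processing notes, CASAVA, TopHat and build mm9 were used. For the counting tool, the annotation, the strand setting and the RPKM denominator, the sources used here give nothing. The authors deposited RPKM per the file headers, as 1 value per gene and group for 22609 genes, so no value of a library, SD, standard error or p-value exists here. The labels do not say that libraries came from separate animals. In the NfibFF-WC column 84.4% of 12205 values with 10 decimals end in repeating 3s or 6s, as a mean of 3 gives. In the wild-type column 8 of 489 values of at least 100 RPKM were tied with another, and 0 of 544 in the other, so wild-type values may have been changed by a normalization not described.

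A minimum of 1 RPKM on the mean weighted by 3 and 2 libraries kept 12511 genes and removed 10098. The columns were divided by 1.153 and 0.867, which removes a median log2 ratio of 0.41, and a pseudocount of 1 was added. The scaling was tested on simulated data in which a small part of the genes changed, in both directions, around a shared shift. That setting lacks columns in which markers of whole cell types differ, so it cannot decide between the scalings. Depth is the median of 1 read's worth in genes with a single transcript in GENCODE M21 (228 wild-type and 202 Nfib-null values, within windows of 12000000 to 20000000 and 20000000 to 40000000 reads that were set with the values in view). Reads per member used the longest coding transcript, and intervals are exact (Clopper-Pearson). Python 3.11.15, pandas 2.3.3, numpy 2.4.6 and scipy 1.17.1 were used. Members, lists, the 2-fold limit and alternatives were chosen with earlier results of these data known. Members past the minimum are given in full, those below it from 0.3 RPKM, and of the other pathway lists the genes past 2-fold and up to 3 nearest to it, or the 2 of largest difference. Amer1, Draxin and Adgre1, which are in the lists, were not matched by symbol.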

Additional observations from a re-analysis of the deposited data

How the results depend on the processing

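No paired analysis was possible because the table holds 1 value per gene and group, and for the same reason no library could be left out in turn. The order below is all members, then Wnt ligands, frizzled receptors and Sfrp antagonists where each moved. With values as deposited the numbers higher were 11, 4 and 4, and the medians 0.84, 1.11, 1.19 and 2.07. Scaled to luminal markers, 3 members were higher and 1 lower, 0 frizzled genes were higher, and the medians were 0.12, 0.40, 0.21 and 1.18. Scaled to fibroblast markers, 1 member, an Sfrp gene, was higher, as were 0 ligands and 0 frizzled genes, and 4 members were lower, 1 of them a frizzled gene. The medians were then −0.52, −0.24, −0.56 and 0.37. Under that scaling 16 of the 23 members took the opposite sign. Among these, Fzd1 (−0.11) and Fzd7 (−0.36) had been called before it and Fzd6 (−1.05) and Lrp5 (−1.08) were called after it. Medians that turned with a value of at least 1 on either side were those of Lrp5 and Lrp6 (−1.39), receptor turnover genes (−1.41), basal and myoepithelial markers (−1.40) and macrophage markers (−0.18), and the medians of several other lists turned with smaller values. Scaling to luminal markers turned the sign of 8 members, quantile normalization of 3 and values as deposited of 1, none of them called on either side. Scaling to fibroblast markers sets the median of those markers to about 0 and shifts the median of all genes to −1.34, against −0.54 for luminal scaling, 0.35 for values as deposited and 0.15 for equal sums.

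A pseudocount of 0.1 gave 10 members and 4 ligands higher, with medians of 0.77 for all members, 1.15 for ligands and 1.97 for Sfrp genes. A pseudocount of 5 gave 0 frizzled genes higher, with medians of 0.29, 0.37, 0.44 and 1.15. With no minimum the medians of all members, ligands and frizzled genes were 0.32, 0.16 and 0.45, as genes near 0 RPKM entered. A minimum of 5 RPKM gave 0.94 for all members, 1.60 for Wnt5b, the 1 ligand left, and 1.93 for Sfrp genes. A limit of 1.5-fold gave 11 members, 4 ligands and 4 frizzled genes higher and 1 member lower, and a limit of 4-fold 1 member, which was an Sfrp gene, with 0 ligands and 0 frizzled genes. Quantile normalization changed no call among the 23 members, and scaling to equal sums, leaving out the 20 most abundant genes, added 1 (Fzd5, 1.02). Where no cause is shown by how an alternative is built, the cause was not tested. Depth limits the members below the minimum most, where wild-type values rest on at most about 38 reads, apart from Fzd3 and Wnt2b.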
